A study of Mus musculus with 10 samples.

Results

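The Hox genes are the 4 tandem arrays of homeobox genes that give position along the body axis, and the p63 binding sites in and around them in mouse keratinocytes are described here. Members were the 38 Hox genes of a given list, from Hoxa2 to Hoxd13, and the p63 peaks whose midpoint lay inside a cluster or within 50 kb of it. Of 8451 p63 peaks in all, 6 (0.071%) met that rule. The 38 genes are part of 21779 protein-coding genes in the annotation. The peaks came from chromatin immunoprecipitation and sequencing (ChIP-seq) of p63 with antibody 4A4 in 2 keratinocyte lines, MK1 and MK2, which the labels call similar. The labels give no treatment, genotype or age for either line, and none for the 8 other libraries of the series, which hold histone marks and input and were not analysed here. A single list of peaks was made from both p63 libraries together, so no spread between lines can be given and read depth is unknown. Without expression values the keratinocyte identity of the lines could not be checked against marker genes.

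p63 is a relative of p53 that binds similar DNA and directs the formation of epidermis and other layered epithelia. Hox proteins bind DNA through a homeodomain, usually with cofactors of the TALE class, such as the Meis proteins. Genes of 1 cluster are transcribed in the same direction and are used in the order in which they lie, with 3′ genes serving anterior and 5′ genes posterior parts of the body. Skin keeps a regional Hox pattern after birth, and Hoxc13 is known for its role in hair and nail. Polycomb proteins keep unused Hox genes silent, trithorax proteins keep used ones active, and retinoic acid induces the 3′ genes.

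The clusters also hold microRNA genes, 1 of which (Mir196a-1) was closer to the Hoxb peak than any Hox gene, so the mature sequences of their 2 families are shown (RefSeq, GRCm38.p6; capitals mark the seed, bases 2 to 8).
miR-196a-5p: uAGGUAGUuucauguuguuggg
miR-196b-5p: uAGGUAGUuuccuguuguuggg
miR-10a-5p: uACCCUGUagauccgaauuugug
miR-10b-5p: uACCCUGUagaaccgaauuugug
The miR-196 sequences share the seed AGGUAGU, and the miR-10 sequences share ACCCUGU. The nearest peak lay 3.91 kb from Mir196b in the Hoxa cluster, 12.34 kb from Mir196a-1 in Hoxb and 29.5 kb from Mir196a-2 in Hoxc. It lay 64.34 kb from Mir10a in Hoxb and 886.97 kb from Mir10b in Hoxd. Of all 1228 miRNA genes in the annotation, 38.8% had a peak within 50 kb. The 3 miR-196 genes were among them and the 2 miR-10 genes were not, a difference between families that was not tested. Mir615, which lies in Hoxc and has another seed (CCGAGCC in miR-615-3p), had its nearest peak at 11.97 kb.

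The comparison asked which Hox clusters p63 occupied. Peaks were found at 3 of the 4 clusters: 3 at Hoxa, 1 at Hoxb, 2 at Hoxc and 0 at Hoxd. Of the 6 peaks, 4 lay between the first and last listed gene of a cluster and 2 lay in a flank, both below Hoxa2. Only 3 had their midpoint inside a listed Hox gene, namely Hoxa9, Hoxc13 and Hoxc6. Positions below are 1-based on mm10, and "below" and "above" mean lower and higher coordinates.

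**Figure D1:**
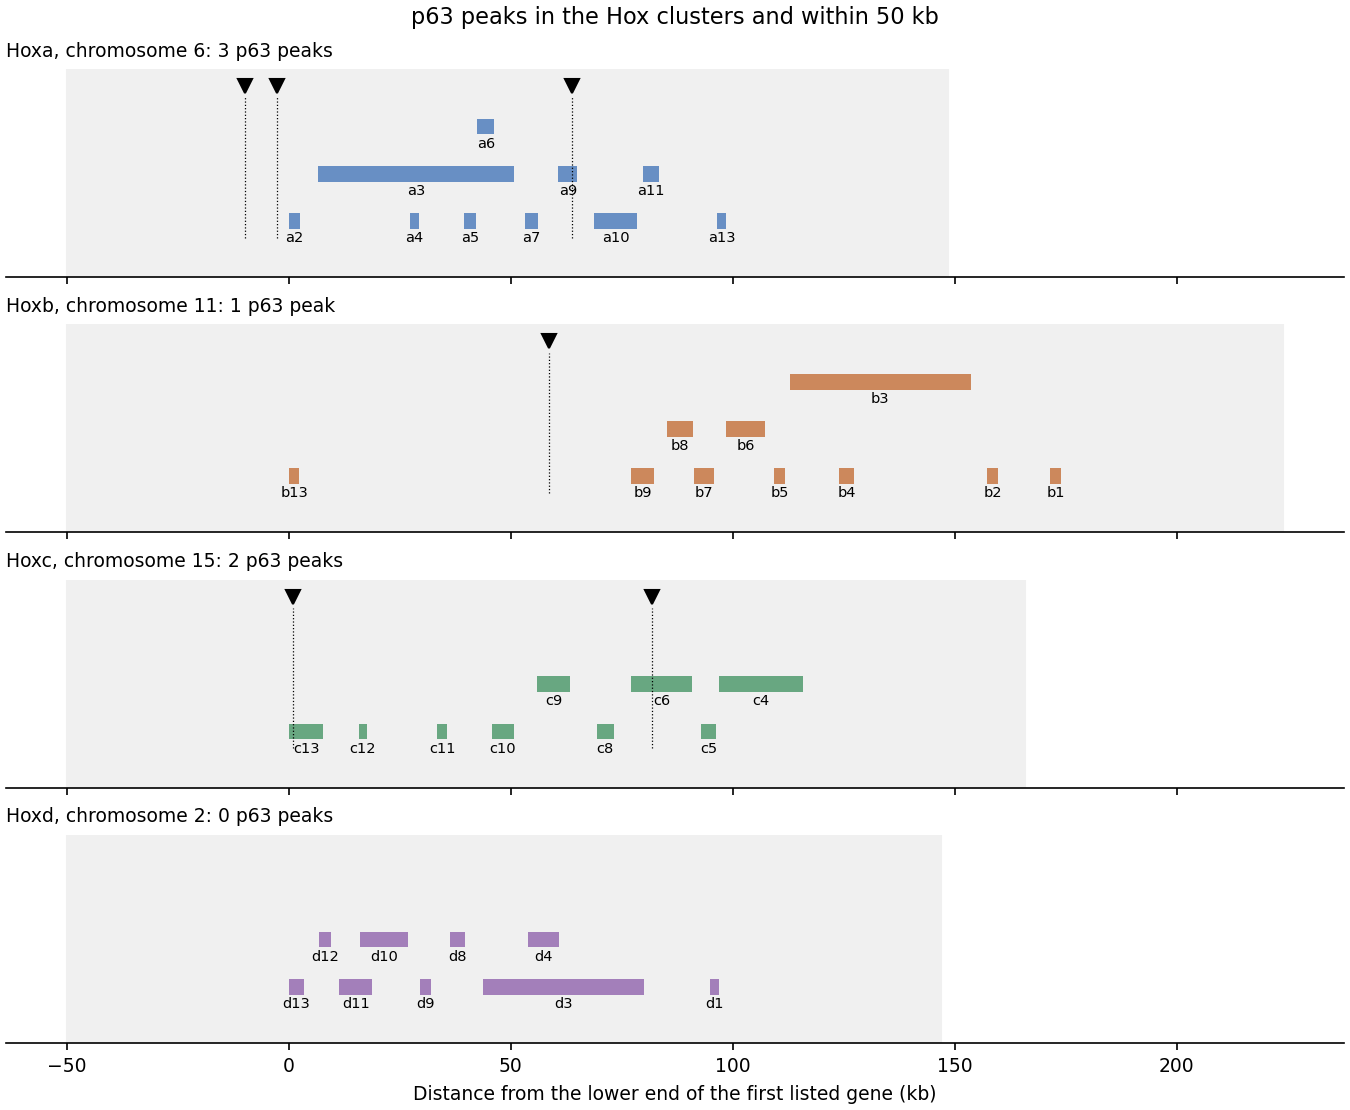
Map of the 4 Hox clusters, to one scale. Boxes are gene extents, each labelled by cluster letter and number, black triangles with dotted lines are p63 peak midpoints, and grey is the cluster with 50 kb on either side. The x axis is the distance in kb from the lower end of the first listed gene. Peaks stand at Hoxa9, Hoxc13 and Hoxc6, in the space between Hoxb13 and Hoxb9, and below Hoxa2, and there is none at Hoxd.

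The Hoxa cluster spans 98.5 kb from Hoxa2 to Hoxa13, at chr6:52162417-52260880. Its only peak between these genes was 216 bp wide, at chr6:52226068-52226283, inside Hoxa9, which encodes a posterior-group factor. RefSeq lists Hoxa9 on the minus strand, and the peak midpoint lay 1.2 kb downstream of the listed start, within the transcribed extent. The annotation used gives no exons, so exon and intron could not be told apart. The same peak was the nearest to Hoxa10 at 5.02 kb and to Hoxa7 at 7.6 kb.

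The other peaks at Hoxa lay beyond the 3′ end of Hoxa2, an anterior-group gene that patterns the hindbrain and second arch. One was 391 bp wide, had its midpoint 2.78 kb below Hoxa2 and lay inside Hotairm1, a non-coding gene of the anterior end of the cluster. Its midpoint also lay inside a protein-coding gene that is not reported here. The second, at chr6:52152330-52152576, was 247 bp wide and 9.96 kb below Hoxa2. It lay 2.91 kb from a protein-coding gene that is not reported here. Both peaks count as flanking because clusters run between listed genes. The midpoints of these peaks lay 7.2 kb apart, and peaks joined at 10 kb counted them as 1 site.

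The Hoxb cluster is the longest, at 173.9 kb from Hoxb13 to Hoxb1 (chr11:96194316-96368254), because Hoxb13 stands apart from the rest. Its 1 peak lay in that space, at chr11:96252708-96252942, and was 235 bp wide. The midpoint lay inside the non-coding gene Gm53, 18.5 kb below Hoxb9 and 56.22 kb above Hoxb13. Mir196a-1 was closer to it than either Hox gene, at 12.34 kb. No peak lay inside a Hoxb gene, and distances to the nearest peak grew from Hoxb9 to Hoxb2, where it was 98.81 kb. Hoxb1, an anterior gene needed for hindbrain segments, had its nearest peak at 90.65 kb, above the cluster.

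The Hoxc cluster spans 115.7 kb from Hoxc13 to Hoxc4 (chr15:102921131-103036856) and had a peak toward each end. The peak at Hoxc13, at chr15:102921837-102922251, was 415 bp wide, the widest of the 6, with its midpoint 0.91 kb above the lower end of the gene. Hoxc4 of the same cluster is listed on the plus strand, which puts the lower ends of Hoxc genes at their 5′ sides. The peak at Hoxc6, a gene of the thoracic group, was the narrowest of the 6 at 209 bp. It lay at chr15:103002832-103003040, 4.71 kb above the lower end of the gene. Hoxc8 lay 8.66 kb and Hoxc5 11.07 kb from it.

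The Hoxd cluster, 96.9 kb from Hoxd13 to Hoxd1 (chr2:74668225-74765142), had no peak inside it or within 50 kb. Hoxd genes serve limb and trunk patterning. The nearest peak was 847.97 kb above Hoxd1 and the nearest on the other side was 1632.4 kb below Hoxd13. Distances for the 9 genes ran from 847.97 kb at Hoxd1 to 941.51 kb at Hoxd13. The stretch between successive peaks that holds the cluster was 2.58 Mb long. Of 8430 such stretches in the list, 163 (1.93%) were as long, and on chromosome 2 it was 14 of 642 (2.18%). A long stretch covers more genes than a short one, so these shares understate how often a gene falls in one. The stretch held 22 protein-coding genes, 9 Hoxd genes and 13 others, among them Evx2, Lnpk and Mtx2, the direct neighbours of the cluster. The 163 stretches held a median of 9.0 protein-coding genes, and 27 of them held as many as 22.

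**Figure D2:**
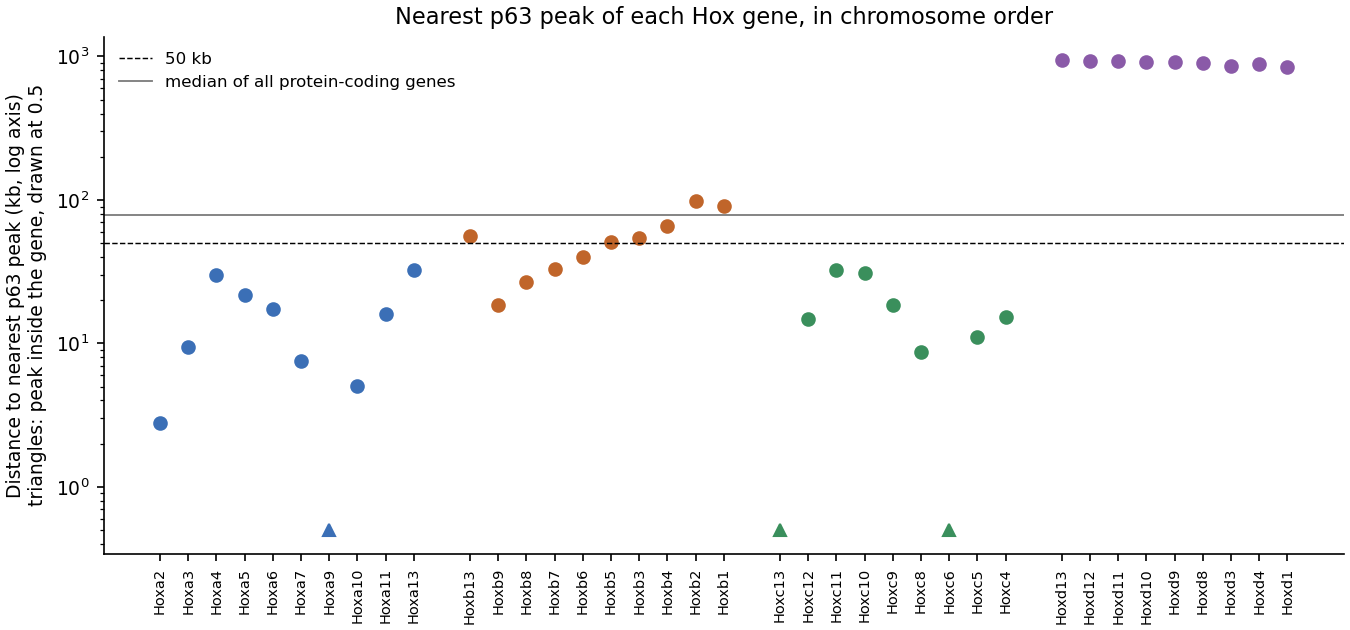
Distance from each of the 38 Hox genes to the nearest p63 peak midpoint, in kb on a log axis, with genes in chromosome order within each cluster. Triangles mark genes with a peak inside (drawn at 0.5), the dashed line is 50 kb and the grey line is the median of all protein-coding genes, 79.0 kb. Hoxa and Hoxc genes lie under 50 kb, Hoxb genes lie on both sides of it and Hoxd genes lie at 847.97 kb or more.

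By gene, 23 of the 38 Hox genes (60.5%) had a peak inside or within 50 kb, against 40.7% of all protein-coding genes. These 23 genes shared 6 peaks, so they are not independent, and no interval is given for the share. All 10 Hoxa genes, 4 of 10 Hoxb genes, 9 of 9 Hoxc genes and 0 of 9 Hoxd genes were among them. The median distance to the nearest peak was 31.8 kb over the 38 genes and 79.0 kb over all protein-coding genes. By cluster the median was 12.7 kb for Hoxa, 52.5 kb for Hoxb, 14.8 kb for Hoxc and 912.9 kb for Hoxd. The medians of Hoxa and Hoxc are close to each other, and that of Hoxd stands apart from the rest.

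The share depended on how near was counted. Within 10 kb it was 8 of 38 genes (21.1%), next to 21.3% of all protein-coding genes. Within 25 kb it was 16 genes (42.1%, next to 29.7%) and within 100 kb 29 genes (76.3%, next to 55.2%). Those 29 were the whole of Hoxa, Hoxb and Hoxc. When a peak counted only for the nearest protein-coding gene, 4 Hox genes (10.5%) had one: Hoxa9, Hoxb9, Hoxc13 and Hoxc6. The same count over all protein-coding genes was 21.9%. With only the peaks at least as wide as the median, 9 Hox genes (23.7%) had one within 50 kb, next to 26.2% of all protein-coding genes. The share of Hox genes thus stood above the general one at 25 to 100 kb, where a peak counts for many neighbours, close to it within 10 kb or with wide peaks, and below it with nearest genes.

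At the 50 kb limit, Hoxa5 was just inside for the most distant of its 3 peaks, at 49.3 kb. Hoxb5, with 50.69 kb to its only near peak, was just outside. Hoxa3, Hoxa4 and Hoxa5 had the most peaks within 50 kb, 3 each, none of them inside the gene. Hoxa2 and Hoxa6 had 2 each, as did Hoxc10 and Hoxc11, which lie between the peaks at Hoxc13 and Hoxc6. The remaining 16 of the 23 genes had 1 each.

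Assigned to the nearest of the 38 listed Hox genes, the 6 peaks went to 5 genes. Hoxa2 received 2, although neither had Hoxa2 as the nearest of all protein-coding genes, and Hoxa9, Hoxb9, Hoxc13 and Hoxc6 received 1 each. Arranged by position in the cluster, 2 of 7 anterior genes (groups 1 to 3) had a peak within 50 kb, 11 of 15 central genes (groups 4 to 8) and 10 of 16 posterior genes (groups 9 to 13). Among all protein-coding genes the share was 40.7%. These classes differ in cluster make-up, with no anterior gene of Hoxc, and they leave out the 1 Hox gene that is not reported. Differences between them therefore cannot be told apart from those between clusters, and were not tested. Listed genes with a peak inside were 1 central gene (Hoxc6) and 2 posterior genes (Hoxa9 and Hoxc13). In all 3 of 38 Hox genes (7.89%) held a peak, against 13.4% of all protein-coding genes. Among the 13941 protein-coding genes in the length range of the Hox genes, 1784 to 44009 bp, 8.56% held one. That range does not match lengths, since the median was 3.72 kb for Hox genes and 17.2 kb for all protein-coding genes. Whether gene length accounts for the share was not tested.

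Peak density was counted over the clusters as well, with exact Poisson intervals that cover counting error only. Between first and last gene the clusters held 4 peaks in 485.0 kb, or 8.25 per Mb (95% interval 2.25 to 21.1). With 50 kb on either side they held 6 in 885.0 kb, or 6.78 per Mb (2.49 to 14.8). The whole list had 3.18 peaks per Mb of annotated chromosome, which lies within both intervals. With the flanks, Hoxa had 15.1 peaks per Mb (3.12 to 44.2) on a chromosome with 2.87, and Hoxc had 9.27 (1.12 to 33.5) on a chromosome with 4.12. Hoxb had 3.65 (0.0924 to 20.3) on a chromosome with 5.44. At Hoxd the 0 peaks allowed up to 18.7 per Mb, so at this size the absence from the cluster itself did not separate it from chromosome 2, with 3.59. With the flanks, Hoxa alone had an interval above its chromosome's density, and its peaks include the close pair below Hoxa2. Between Hoxa2 and Hoxa13, with 1 peak, the density was 10.2 per Mb and the interval (0.257 to 56.6) covered that of the chromosome.

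The 6 peaks were 209 to 415 bp wide, with a median of 241 bp, next to 305 bp for all peaks. The peaks at Hoxc13 and inside Hotairm1 were wider than the list's median, and the other 4 were narrower. The list holds no height, so width is the only measure of a peak that it gives.

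Flanks were followed out to 1 Mb on either side, to ask whether distal peaks lay around the clusters. They held 45 peaks, or 5.63 per Mb (95% exact Poisson interval 4.10 to 7.53), of which 2 were the pair below Hoxa2. At 50 to 250 kb there were 7 peaks, at 250 to 500 kb 9 and at 500 to 1000 kb 27. Density was 4.38, 4.50 and 6.75 per Mb over these distances, and 5.0 within 50 kb, where the pair gave the only peaks. Most of the flanking peaks lay at 500 to 1000 kb, which is also the widest of these distance classes. The whole list had 3.18 peaks per Mb, below the interval for the flanks, a difference that was not tested. The chromosomes themselves had 2.87 (Hoxa), 5.44 (Hoxb), 4.12 (Hoxc) and 3.59 (Hoxd) per Mb. Those of Hoxb and Hoxc lay within the interval. By cluster, below and above, there were 7 and 3 at Hoxa, 14 and 6 at Hoxb, 8 and 2 at Hoxc, and 0 and 5 at Hoxd. The flanks were thus uneven, with the most peaks at Hoxb and the fewest at Hoxd.

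**Figure D3:**
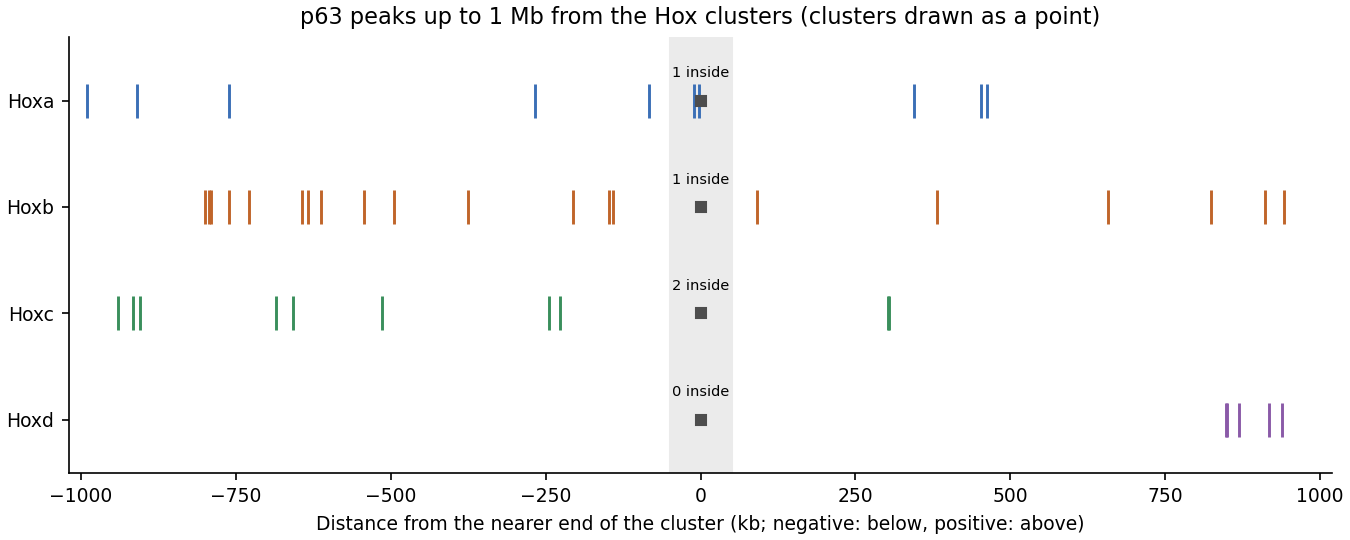
Peaks up to 1 Mb from each cluster. Each tick is a p63 peak midpoint, the x axis is its distance in kb from the nearer end of the cluster (negative below, positive above), the square is the cluster with its count of peaks inside, and grey is 50 kb on either side. The flanks of Hoxb hold the most ticks, 20, and Hoxd has none until 847.97 kb above it.

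The nearest distal peaks are given here with the genes around them. Below Hoxa, a 269 bp peak at chr6:52078394-52078662 was 83.89 kb from Hoxa2, in the space toward Skap2, which encodes a Src-kinase adaptor. The next was inside Skap2, 266.74 kb from Hoxa2. Above Hoxa13 the first was 345.30 kb away, inside Hibadh, an enzyme gene of valine breakdown, and the peak nearest to Evx1, a homeobox gene beside Hoxa13, was the one in Hoxa9, at 87.32 kb. The upper side of Hoxa was thus free of peaks over a longer distance than the lower side.

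Above Hoxb1, the first peak was 415 bp wide at chr11:96458696-96459110, 90.65 kb away and 5.67 kb from Skap1, a paralogue of Skap2. A further peak lay inside Skap1. Below Hoxb13 the first was 141.28 kb away, inside Ube2z, a ubiquitin-conjugating enzyme gene. Ttll6, the protein-coding gene next to Hoxb13, had no peak within 71.42 kb. Below Hoxc13 the first peak was 226.61 kb away, 12.26 kb from Calcoco1. Above Hoxc4 a pair of peaks lay at 302.56 and 304.09 kb, at the upper end of Zfp385a, a zinc finger gene. Smug1 and Cbx5, which lie between Hoxc4 and that pair, had no peak within 150.35 and 99.51 kb.

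Related genes were counted in the same way, in 6 lists of 66 genes in all. Together 29 of 66 (43.9%) had a peak inside or within 50 kb, next to the 40.7% of all protein-coding genes. Among other homeobox genes, the ParaHox and Evx genes, the closest relatives of the Hox genes, had 0 of 8. Their nearest peaks lay from 58.23 kb at Gsx1 to 951.59 kb at Evx2. The Dlx and Msx genes, which act in skin appendages and skull, had 4 of 9. Dlx3, which is required for hair and epidermal differentiation, had 5 peaks within 50 kb, the nearest at 9.21 kb. Dlx4, its neighbour, had 2, the nearest at 5.94 kb, and none lay inside either gene. A peak near both neighbours counts for each. These differences between small lists were not tested.

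TALE cofactors, the partners of Hox proteins on DNA, had a peak inside or within 50 kb in 3 of 8 cases (37.5%). The share of all protein-coding genes was 40.7%. Pknox1 had 3 peaks, Pbx4 had 2, of which 1 was inside the gene, and Meis3 had 1. Meis1 and Meis2 had none within 453.99 and 660.17 kb. Of the genes of the retinoic acid pathway, 9 of 16 (56.2%) had a peak, and the difference from 40.7% was not tested. Rxra, which encodes a retinoid X receptor, had 5, all inside the gene, and Rarg, the main retinoic acid receptor of epidermis, had 2. Crabp1, which encodes a retinoic acid binding protein, had 4, the nearest at 21.92 kb. Cyp26b1, which encodes an enzyme that degrades retinoic acid, had 3, the nearest at 0.16 kb.

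Polycomb genes had a peak in 7 of 17 cases, a share of 41.2%, close to the 40.7% of all protein-coding genes. Eed, which encodes a core subunit of the complex that methylates histone H3 lysine 27, had 2 peaks, 1 of them inside the gene. Phc2 had 2 inside the gene. Ezh2, the catalytic subunit gene, had 1 at 2.46 kb, and Suz12 had none within 168.87 kb. Trithorax and H3K27 demethylase genes had a peak in 6 of 8 cases. Kdm6b, which encodes a demethylase of the mark that Polycomb sets, had 3 peaks, 2 of them inside the gene. Ash2l had 3, the nearest at 15.12 kb. Kmt2a, which encodes the methyltransferase that maintains Hox expression, had 1 at 23.75 kb.

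**Figure D4:**
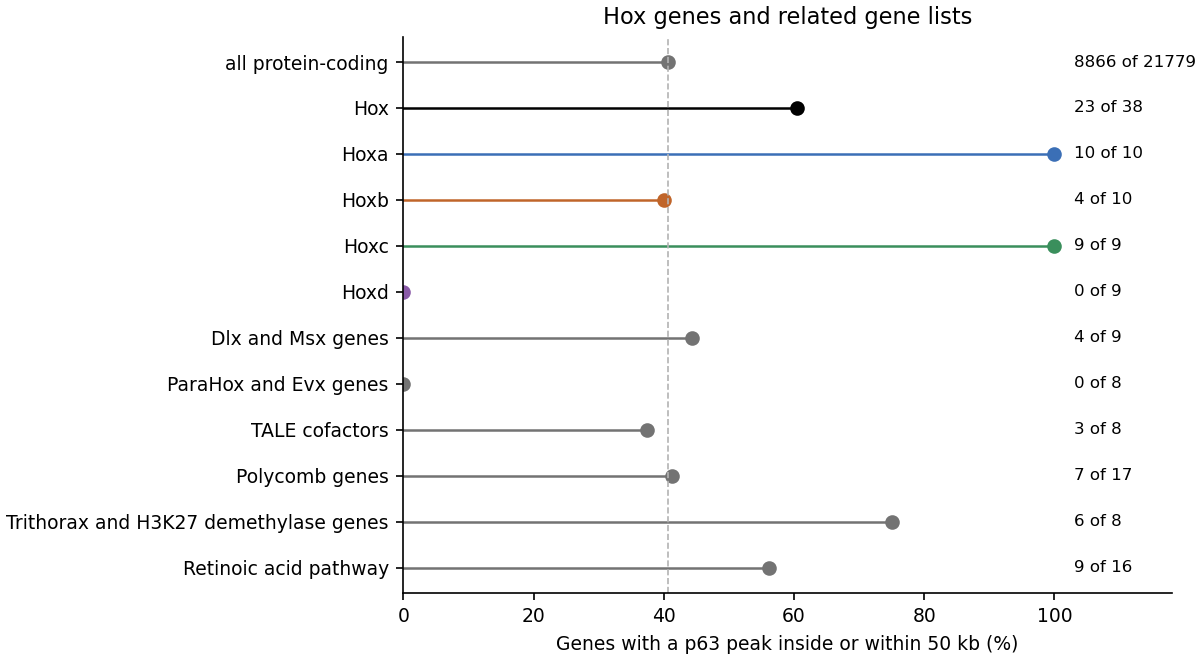
Share of genes with a p63 peak inside or within 50 kb, in percent, for all protein-coding genes, the 38 Hox genes, each cluster and 6 related lists, with the counts at the right. The dashed line is the share of all protein-coding genes, 40.7%. Every listed gene of Hoxa (10 of 10) and Hoxc (9 of 9) is counted, and none of Hoxd (0 of 9) or of the ParaHox and Evx genes (0 of 8). Genes of a cluster share peaks, so points are not independent.

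Promoters were examined in RefSeq windows from 250 bases before to 50 after a start, which matched 22 of the 38 Hox genes in 24 windows. None of the 24 was overlapped by a p63 peak, and of all 32851 such windows 1.07% were. At so low a share, 24 windows are too few for the lack of overlap to set Hox promoters apart. Among the 24 starts, that of Hoxa9 was nearest, 1.2 kb from its peak, followed by Hoxa2 at 5.19 kb and Hoxa7 at 7.6 kb. Hoxc13, Hoxc6 and Hoxb9 had no window, so their promoters were not examined. The Hoxc13 peak was 0.91 kb from the boundary taken as the 5′ side of that gene, a shorter distance than at Hoxa9. All listed Hoxd genes had windows, with no peak within 850.13 kb of a start. The lack of overlap there follows from the absence of peaks around Hoxd. A p53-family sequence of 10 bases, which is only a part of the full binding site, was searched by its consensus on both strands (it is its own reverse complement). It was present in 3 of the 24 windows and in 8.36% of all windows. The 3 matches are shown within 30 bases, with the match in capitals (GRCm38.p6, strand of the gene), because none of them lay at a peak.
Hoxa11: aaaaaagccgGGACTAGCTCgcggcttgtc
Hoxd10: ccggccggccAAACAAGCCCcgggagacag
Hoxd4: GGACAAGCCTaccaaccagccttgtccaaa
The 30 bases shown for Hoxa11 lie at chr6:52245888-52245917 on the minus strand, and the nearest peak was 19.64 kb from the start of that gene. Those shown for Hoxd10 (chr2:74691676-74691705) and Hoxd4 (chr2:74721728-74721757) lie on the plus strand, with no peak within 921.22 and 891.13 kb of the starts. The Hoxa9 window held no match. A match of these letters is a description of the window and does not show a binding site. Sequences of the peaks themselves were not used here.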

How the data were processed

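Chromatin of MK1 and MK2 was immunoprecipitated for p63 and read as 50 bp single ends, per the labels' protocols. The authors deposited 1 peak list, made by the irreproducible discovery rate procedure on both p63 libraries together, per the labels. It gives chromosome, start and end, with no score. Bowtie 1.1.1, SAMtools 1.1 and mm10 appear in the submitters' processing notes. The peak caller and its thresholds were not given in the sources used here.

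Starts were converted to 1-based positions. Distances run from a peak midpoint to the nearer gene boundary, and are 0 inside a gene. Genes came from RefSeq for GRCm38.p6, whose chromosomes are those of mm10; 340 entries ending below 3 Mb outside chromosome Y were left out, leaving 49603. Clusters run from the first to the last of the 38 genes; 1 Hox gene and 1 gene of a related list are not reported here. The list holds no replicate values, so results are counts set beside all protein-coding genes, without tests. Named were the 38 genes, genes at near peaks, fixed cluster neighbours and up to 4 genes with most peaks per related list; other genes were named after their values were seen. Members and lists were chosen with earlier results of these data known. The distance code was tested on simulated data. Python 3.11.15, pandas 2.3.3 and scipy 1.17.1 were used.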

Additional observations from a re-analysis of the deposited data

How the results depend on the processing

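The count of 6 peaks near the clusters was also 6 within 10 kb, within 25 kb and with any base of the peak, 8 within 100 kb, and 5 with peaks joined at 10 kb or with distances from the listed starts of 22 genes. It rose to 13 within 250 kb and 22 within 500 kb, by construction of the wider windows, and was 2 with only the 4229 peaks at least as wide as the median. That stricter list gave 9 Hox genes with a near peak (23.7%, next to 26.2% of all protein-coding genes) and 27 flanking peaks in place of 45. Inside the clusters it gave 2.06 peaks per Mb, next to 1.59 over all its peaks. The peak at Hoxc13 alone made up that value inside the clusters, so it cannot be told apart from 1.59. The 23 Hox genes with a peak near were 8 within 10 kb and 4 when a peak counted only for its nearest gene. With distances from listed starts the count was 11, out of the 22 genes that have one. That count cannot be set against 23 of 38, and no share over all genes is given for it. Flanks of 500 kb, chosen after seeing the data like the stricter flank count, held 18 peaks. Of the 66 related genes, 18 had a peak within 10 kb (27.3%, next to 21.3% of all protein-coding genes). Within 50 kb it was 29 (43.9%, next to 40.7%). The 5 genes with an assigned peak were 4 by listed starts, with Hoxb8 and Hoxc4 in place of Hoxb9, Hoxc13 and Hoxc6, whose starts are not listed. No paired analysis was possible because the peak list pools MK1 and MK2, and no replicate could be left out for the same reason. Depth is unknown, so a missing peak can mean too few reads.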

Other observations

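The outer flanks held peaks at other genes, named here after their values were seen. A peak 657.64 kb above Hoxb1 lay 1.15 kb from Sp6, which encodes a factor of teeth and skin appendages. A 653 bp peak lay 515.03 kb below Hoxc13 and 0.216 kb from Sp1. Sp9, of the same family, lay in the stretch of 2.58 Mb around Hoxd that held no peak. Of the 5 peaks above Hoxd, 2 were inside Nfe2l2, a regulator of the oxidative stress response, at 918.14 and 938.33 kb from Hoxd1.

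The lower flank of Hoxc reached the keratin genes: peaks 940.10 and 915.48 kb below Hoxc13 lay inside Krt78 and 1.31 kb from Krt8, and another 685.61 kb below it lay inside Rarg. The lower flank of Hoxb held 3 peaks nearest to Ngfr, which encodes a neurotrophin receptor, 1 of them inside the gene. No pattern among these genes was tested.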
